A study of Mus musculus with 16 samples.

Results

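The integrated stress response and amino acid genes described here are 44 mouse genes chosen by symbol: 6 transcription factors and partners, 9 effectors, 5 enzymes of amino acid synthesis and turnover, 7 enzymes of serine and one-carbon folate metabolism, 7 amino acid transporters and 10 cytosolic tRNA synthetases. All 44 were found in 2 of the 3 deposited tables and 43 in the table of embryonic stem cells, where Fgf21 was not among the genes. They are 44 of the 21615 (embryonic fibroblasts) and 18288 (kidney cells) genes listed and 43 of 23083 in stem cells, and every one that was found passed the filter on low values, a mean of at least 1.

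Total RNA was sequenced from 16 libraries in 8 groups of 2. The stem cell libraries (ESCs) came from wild type, from an Actb K.O. (knockout, KO below) and from a full deletion of the Actb locus. For the fibroblasts of embryos (MEFs) the 3 genotypes were wild type, Actg1 K.O. and a full deletion of the Actg1 locus. Kidney fibroblasts (MKFs) carried Kindlin-2 floxed or were Kindlin-2 K.O., and in the floxed cells recombination sites flank part of the gene. Actb and Actg1 encode the cytoplasmic actins, and Kindlin-2 (gene symbol Fermt2) encodes an integrin activator. Each mutant was set against the control of its own cell type, and the series asked whether a mutant gene changes the expression of others through its degraded transcript, which a locus deletion would not make. The labels give no strain, age, clone number or culture conditions, and do not state whether the 2 libraries of a group are separate cultures; a p-value here therefore measures library-to-library spread only, which may be technical.

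In the integrated stress response, kinases that sense amino acid shortage, unfolded protein, double-stranded RNA or lack of haem phosphorylate the translation factor eIF2. General translation falls while the mRNA of the transcription factor ATF4 is translated more, and ATF4 with its partners raises genes for amino acid synthesis, uptake and charging onto tRNA, for one-carbon metabolism in mitochondria, and for feedback on the response itself. ATF4 protein is set largely at translation, so the level of Atf4 mRNA reports on it only in part. Many of its targets carry a C/EBP-ATF response element near the start of the gene.

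The core letters of that element, TGATGNAA or TTNCATCA on the other strand, were searched in the RefSeq windows from 250 bases before to 50 after each start (GRCm38.p6). Of the 44 genes 35 matched an entry, and 12 of these (34.3%) held the motif, against 4.5% of all 27025 genes in the table, each counted once if any of its windows held it (4.0% of 32851 windows). The 44 were chosen as genes of this response, so a higher share can follow from that choice and is no result of these data. The 12 were Aars, Asns, Chac1, Fgf21, Gars, Iars, Nupr1, Pycr1, Slc7a11, Trib3, Vldlr and Yars. Below are 60 bases, 5′ to 3′ in the direction of the gene, around the motif in 5 of these genes whose stretch touches no annotated exon, shown because these letters recur in the promoters of several members described below. Capitals mark the motif.
Chac1, chr2:119351023-119351082, plus strand: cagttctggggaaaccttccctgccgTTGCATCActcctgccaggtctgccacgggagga
Slc7a11, chr3:50443646-50443705, minus strand: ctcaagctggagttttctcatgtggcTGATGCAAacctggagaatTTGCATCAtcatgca
Gars, chr6:55037941-55038000, plus strand: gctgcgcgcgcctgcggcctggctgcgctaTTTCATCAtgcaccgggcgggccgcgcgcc
Fgf21, chr7:45615596-45615655, minus strand: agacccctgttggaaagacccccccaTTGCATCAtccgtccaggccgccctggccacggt
Pycr1, chr11:120643818-120643877, minus strand: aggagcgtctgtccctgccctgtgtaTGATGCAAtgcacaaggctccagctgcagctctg
Slc7a11 held the motif on both strands, at -66 and -47 from its start, counted to the first base of the match. In Asns the match lay at -23. A match describes letters and is not a measured binding site.

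The values are normalised read counts, each table scaled on its own, so tests ran only within a table. A gene is said to have risen or fallen only at an adjusted p below 0.05 (limma across all genes of a comparison, Benjamini-Hochberg), and differences are given on the log2(value + 1) scale with their standard error (SE). The summed values were 15565648 to 22094490 per library, with an estimated 12700000 to 24500000 reads behind each. The targeted genes went with the labels: Actb was at 65.8% of wild type in the ESC KO and 6.68% in the locus deletion, Actg1 at 17.8% and 0.351% in the 2 MEF mutants, and Fermt2 at 40% of floxed in the MKF KO.

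Some markers of cell type differed between groups in each of the 3 tables. In the cells labelled kidney fibroblasts, Col3a1, Thy1, Dcn and Lum of 9 fibroblast markers were not listed. The others summed to 389 and 450 in floxed and 23 and 21 in KO libraries, where 4 of 5 fell and Pdgfra rose. Of 7 epithelial markers 6 rose in the MKF KO, and their sum went from 5600 and 5887 to 25193 and 25520. Of 6 macrophage markers 3 were listed in MKFs. All 3 rose in the KO, and their sum went from 162 and 164 to 245 and 264. In MEFs the 9 fibroblast markers summed to 38916 and 35610 in wild type, 145300 and 152182 in the Actg1 KO, where 5 rose and 2 (Pdgfrb and Postn) fell, and 33040 and 33428 in the locus deletion, where 5 fell. Sox2, a stem cell and neural gene, stood at 44 and 32 in wild-type MEFs, at 1326 and 1306 in the Actg1 KO and at 0 in both locus deletion libraries. In MKFs Sox2, the only stem cell marker of 7 that was listed, fell from 132 and 134 in floxed to 3 and 0 in KO libraries. In ESCs all 7 stem cell markers were present in every group, with sums from 33334 to 38997, and of these Utf1 rose in both mutants. The 6 listed epithelial markers summed to 13289 and 12787 in wild type, 9940 and 9873 in the KO, where Krt8 and Krt18 rose and Cdh1 fell, and 8029 and 7843 in the locus deletion, where these 3 fell. Of 6 macrophage markers 3 were listed in ESCs. They summed to 1103 and 970 in wild type, 2038 and 1942 in the KO, where Laptm5 and Cd68 rose, and 1390 and 1276 in the locus deletion, where Cd68 rose. The part of all these markers in the differences below was not tested. In bulk RNA, fewer cells of a type and less RNA per cell cannot be told apart.

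The 44 genes were chosen with earlier results of these data known, so contrasts with all genes are not independent of that choice. Across the 5 mutants the 44 genes moved in 3 ways. In the Kindlin-2 KO 38 of 44 fell and 2 rose, where 24.9% of all genes fell and 24.3% rose. In the Actg1 KO 37 rose and none fell, against 20.6% and 19.1% of all genes. There 38 had an unadjusted p below the same threshold, all of them higher. In the Actg1 locus deletion 27 rose and 4 fell, against 9.46% and 12.6% of all genes. In the Actb mutants most genes did not pass the test. In the KO 11 of 43 fell, and in the locus deletion 13 fell and Slc7a3 rose. Of all genes 2.44% fell and 2.44% rose in the Actb KO, and 6% and 5.19% in the locus deletion. At an unadjusted p below the threshold, in either direction, there were 26 members in the Actb KO and 22 in the Actb locus deletion. The share of all genes at an unadjusted p was not counted, here or below. The summed share of a library taken by the listed genes was 0.836% and 0.827% in floxed MKFs against 0.448% and 0.461% in the Kindlin-2 KO. It was 0.438% and 0.425% in wild-type MEFs, 0.655% and 0.672% in the Actg1 KO and 0.546% and 0.553% in the locus deletion. In ESCs it was 0.615% and 0.58% in wild type and between 0.498% and 0.516% in the mutants. The 2 libraries of each group therefore lay nearer to each other than to the other groups of their table, except that the ESC mutants overlapped.

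**Figure D1:**
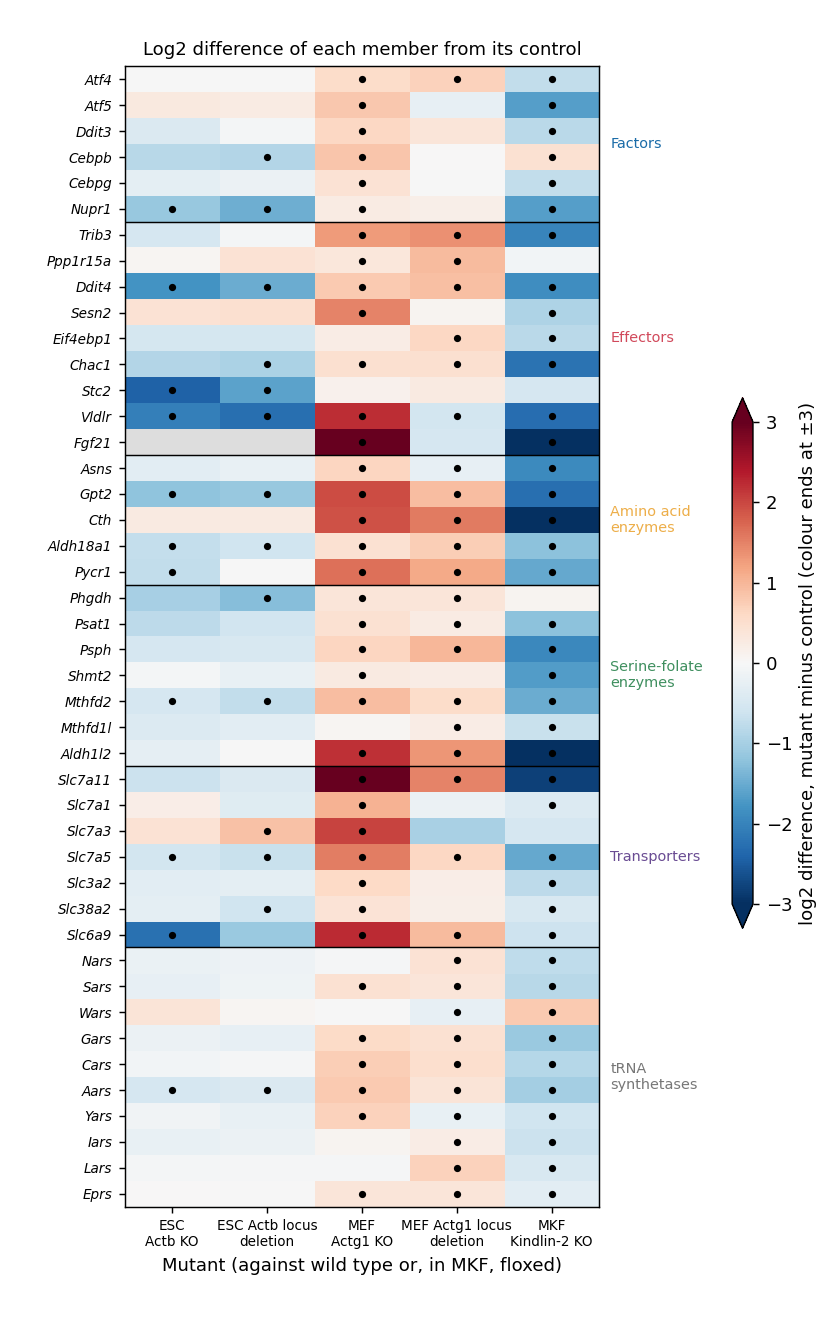
Each row is 1 of the 44 genes, grouped by role, and each column 1 mutant against its control. Colour gives the log2 difference (red higher in the mutant, blue lower, ends at ±3), a black dot marks an adjusted p below 0.05, and grey marks Fgf21, which is not in the ESC table and is at or under 32 normalised reads in the others. The Actg1 KO column is almost all red (37 rose) and the Kindlin-2 KO column almost all blue (38 fell).

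Per kilobase of exon and scaled to the library's total, Atf4 had the highest level of the listed genes in wild-type MEFs (108) and floxed MKFs (168), followed by the glycyl-tRNA synthetase gene Gars (92.6 and 140). In wild-type ESCs Asns, which encodes asparagine synthetase, came first at 294, ahead of Gars at 116 and Atf4 at 96.2 on the same scale. In wild-type MEFs Nars (55.8), Iars (55.6), Psat1 (55.4) and Asns (54.1) followed, and the ranges of Nars and Iars over the 2 libraries overlap with those of the other 3. Aldh1l2, the mitochondrial 10-formyltetrahydrofolate dehydrogenase, had a level of 0.668 in wild-type ESCs, 4.68 in wild-type MEFs and 58.0 in floxed MKFs. These levels set tables side by side and are approximate for that reason.

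In the Kindlin-2 KO the stress response and amino acid genes were lower as a set, and the mitochondrial folate enzyme Aldh1l2 fell most. The 38 that fell compare with 24.9% of all 18288 genes tested that fell, and the 2 that rose with 24.3% that rose. The median log2 difference was -0.90 over the 44 and 0.01 over all genes. Of the 38, 21 were lower by at least 2-fold, counting Fgf21, whose KO libraries are at or near 0. Ppp1r15a, Stc2, Phgdh and Slc7a3 did not pass the test.

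Among the factors, Atf4 (chr15:80255184-80257541, plus strand, GRCm38) stood at 6275 and 6551 in floxed and 3889 and 3824 in KO libraries, a log2 difference of -0.73 (SE 0.0383, adjusted p = 0.000229). Nupr1, a small stress-induced chromatin protein, went from 737 and 816 to 245 and 243 (log2 difference -1.66, SE 0.0718, adjusted p = 0.000154). Atf5, an ATF4 target and relative, went from 591 and 538 to 178 and 181 (-1.65, SE 0.075, adjusted p = 0.000174). Each of these 3 had both KO libraries far below both floxed libraries. Ddit3, which encodes the pro-apoptotic factor CHOP, fell from 327 and 349 to 177 and 209 (-0.81, SE 0.106, adjusted p = 0.00327), and Cebpg, a dimer partner of ATF4, fell by 0.73. Cebpb was the exception among the 6: it rose from 534 and 531 to 714 and 745 (0.45, SE 0.0518, adjusted p = 0.00213). Its exons share 312 bases with the opposite-strand gene Tmem189, which was at 130 and 159 in floxed and 155 and 177 in KO libraries.

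Of the 9 effectors 7 fell. Vldlr, a lipoprotein receptor raised under stress, went from 1333 and 1321 to 282 and 261 (log2 difference -2.29, SE 0.0603, adjusted p = 5.51e-05). Chac1, which breaks down glutathione, went from 763 and 779 to 155 and 179 (-2.20, SE 0.0886, adjusted p = 0.000129). Trib3, a pseudokinase that restrains ATF4 and CHOP, went from 568 and 590 to 148 and 142 (-1.99, SE 0.068, adjusted p = 9.12e-05), which is 3.99-fold lower. Ddit4, an inhibitor of mTORC1, fell by 1.87 on the log2 scale, Sesn2, another, by 0.93, and Eif4ebp1, the translation repressor 4E-BP1, by 0.80. The hormone gene Fgf21 was at 22 in both floxed libraries and at 1 and 0 in the KO (adjusted p = 0.00237). It passed the filter on low values only through its floxed libraries, so its call is no separate support. Ppp1r15a, the phosphatase subunit GADD34 that reverses eIF2 phosphorylation, was at 1483 and 1417 in floxed and 1358 and 1384 in KO libraries (adjusted p = 0.2), so it was lower in both KO libraries by an amount that did not pass the test. Stc2, a secreted glycoprotein, was at 244 and 200 against 136 and 176 (adjusted p = 0.0593).

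All 5 enzymes of amino acid synthesis and turnover fell, by 2.35-fold to 9.85-fold. Cth, the cystathionine gamma-lyase that makes cysteine, went from 1031 and 1057 to 104 and 108 (log2 difference -3.29, SE 0.063, adjusted p = 3.95e-05). Gpt2, the mitochondrial alanine aminotransferase, went from 1816 and 1756 to 368 and 373 (-2.27, SE 0.0473, adjusted p = 4.7e-05). Asns went from 5434 and 5642 to 1499 and 1433 (-1.92, SE 0.0435, adjusted p = 4.88e-05). None of the KO libraries came near the floxed range for these 3. The proline synthesis genes Pycr1 (from 216 and 214 to 81 and 67) and Aldh18a1 (from 2233 and 2350 to 997 and 956) had log2 differences of -1.53 and -1.23.

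Of the 7 serine and folate enzymes 6 fell. Aldh1l2 (chr10:83487450-83534140, minus strand) went from 7014 and 7008 to 140 and 153, 47.9-fold lower (log2 difference -5.57, SE 0.0585, adjusted p = 1.84e-05), and ranked 77 of 18288 genes by size of fall. Its exons share 1056 bases with the opposite-strand gene D10Wsu102e, and whether counting used strand is not given in the sources used here. D10Wsu102e was at 1619 and 1583 in floxed and 2181 and 2237 in KO libraries, higher where Aldh1l2 was lower. Psph, the last enzyme of serine synthesis, went from 1144 and 1100 to 326 and 266 (-1.93, SE 0.108, adjusted p = 0.000275), Shmt2, which splits serine in mitochondria, from 5507 and 5566 to 1646 and 1816 (-1.68, SE 0.0569, adjusted p = 8.88e-05), and Mthfd2, which oxidises the one-carbon unit there, from 4092 and 4271 to 1452 and 1506 (-1.499, SE 0.0434, adjusted p = 6.25e-05). The exons of Psph share 452 bases with the opposite-strand gene Cct6a. Cct6a was at 10926 and 11352 in floxed and 11636 and 11140 in KO libraries, far above Psph. Psat1 fell by 1.24 and Mthfd1l by 0.68. Phgdh, the first enzyme of serine synthesis, stood apart from the rest of its pathway, at 2397 and 2588 in floxed and 2732 and 2545 in KO libraries, which overlap (adjusted p = 0.308).

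Of the 7 transporters 6 fell. Slc7a11, the cystine importer xCT (chr3:49892526-50443614, minus strand), went from 1139 and 1080 to 168 and 148, 7.02-fold lower (log2 difference -2.81, SE 0.0838, adjusted p = 6.66e-05). Slc7a5, the large neutral amino acid transporter LAT1, went from 3876 and 3570 to 1256 and 1325 (-1.53, SE 0.0577, adjusted p = 0.000112), and its heavy chain Slc3a2 from 2887 and 2962 to 1657 and 1738 (-0.79). The glycine transporter Slc6a9 (-0.61), the glutamine and alanine carrier Slc38a2 (-0.48) and the cationic carrier Slc7a1 (-0.40) fell less. Slc7a3, another cationic carrier, was at 9 in both floxed and 6 in both KO libraries (adjusted p = 0.223).

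Of the 10 tRNA synthetases 9 fell, between 1.24-fold (Eprs) and 2.16-fold (Gars), a smaller range than that of the enzymes. Gars went from 7033 and 7096 to 3137 and 3406 (log2 difference -1.11, SE 0.0499, adjusted p = 0.000171), and Aars from 9586 and 9710 to 4642 and 4854 (-1.02, SE 0.0377, adjusted p = 0.000109). The other 7 that fell were Cars (-0.86), Sars (-0.83), Nars (-0.77), Iars (-0.64), Yars (-0.60), Lars (-0.48) and Eprs (-0.31). Wars, the tryptophanyl enzyme that interferon also raises, was the exception and rose from 610 and 615 to 1022 and 1081 (0.78, SE 0.0516, adjusted p = 0.000425). Without floxed library 1 the count of members called went from 40 to 25, and without floxed library 2 to 23, all of them lower, so that the rises of Cebpb and Wars were no longer called. Leaving out a floxed library also lowered the count called over all genes. Aldh1l2, Cth, Slc7a11, Asns, Gpt2, Vldlr, Trib3 and Atf4 were among 22 genes called under every alternative tried.

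In the other pathway lists genes changed in both directions, as they did among all genes (24.3% rose and 24.9% fell). Of 10 other cytosolic synthetase genes 5 rose and 5 fell, with Mars at 3752 and 3768 against 2138 and 2171 (log2 difference -0.80, adjusted p = 0.000154), Tars lower (-1.02) and Dars higher (0.41). Of 17 mitochondrial synthetase genes 6 rose and 2 fell. Of 14 other folate and glycine genes 6 rose, among them Mthfd1, the cytosolic folate enzyme (0.79, adjusted p = 0.000293), and 3 fell. Of 15 genes for eIF2, its exchange factor, kinases and phosphatase 5 rose and 4 fell, and Eif2s1, the phosphorylated subunit, rose from 1681 and 1822 to 3826 and 3580 (1.08, adjusted p = 0.000266). Of 11 other amino acid transporters 3 rose and 7 fell, with Slc1a4 at -1.41. Of 16 endoplasmic reticulum stress genes 4 rose and 7 fell. The list holds chaperones and also Herpud1, Edem1, Syvn1 and the transcription factor Xbp1. Herpud1, which takes part in the breakdown of unfolded protein, went from 620 and 658 to 205 and 184 (-1.71, adjusted p = 0.000185). The disulfide isomerase Pdia6 went from 1625 and 1713 to 3348 and 3208 (0.97). Of 8 mitochondrial stress genes 6 rose and 1 fell.

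**Figure D2:**
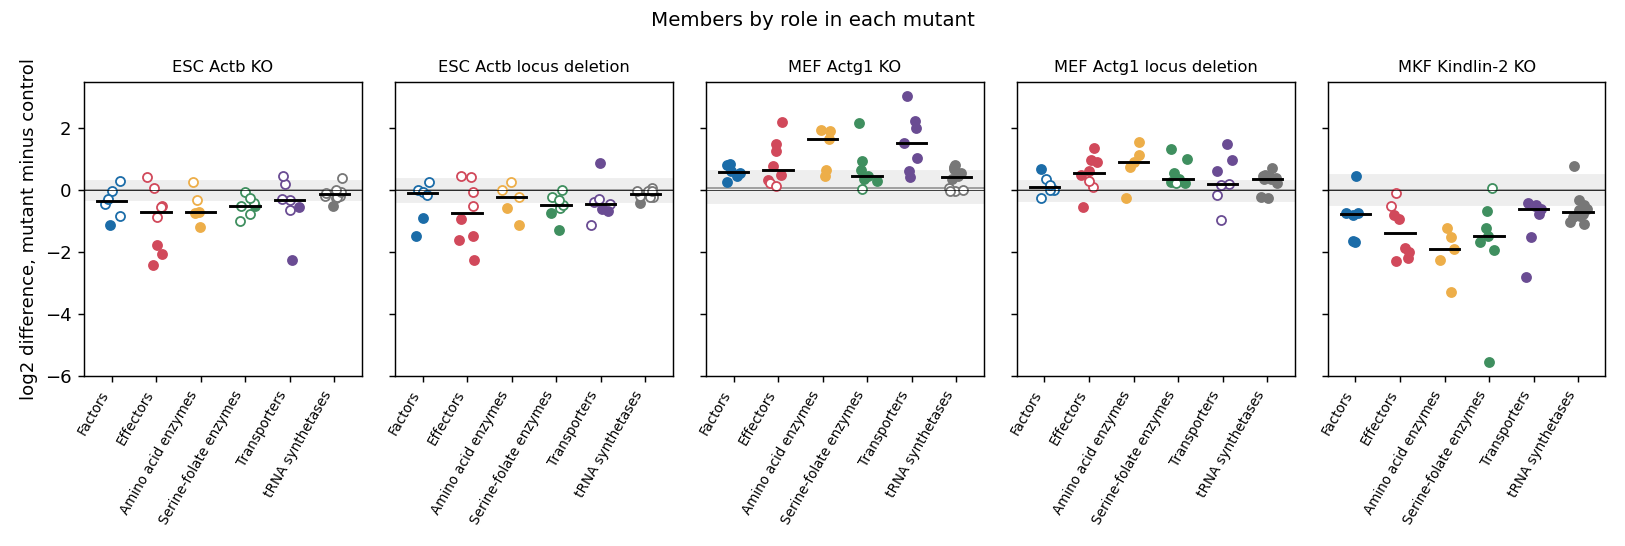
Each point is 1 gene (43 per panel, without Fgf21) at its log2 difference from the control, by role; filled points passed the test, open points did not, and the black bar is the median of a role. The grey band spans the lower to the upper quartile of all genes tested and the grey line their median. The amino acid enzymes have the lowest role median in the Kindlin-2 KO (-1.92) and, with the transporters, the highest in the Actg1 KO (1.66 and 1.53), while in the Actb KO the synthetases have the role median nearest 0 (-0.14).

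In the Actg1 KO MEFs most of the 44 genes rose. The 37 that rose compare with 20.6% of all 21589 genes tested that rose, and the absence of any that fell with 19.1% that fell. The median log2 difference was 0.63 over the 44 genes and 0.06 over all. All 6 factors, all 5 amino acid enzymes and all 7 transporters rose, with 7 of 9 effectors, 6 of 7 serine and folate enzymes and 6 of 10 synthetases, and 13 of the 37 rose by at least 2-fold, counting Fgf21, whose wild-type libraries are at or near 0. Eif4ebp1, Stc2, Mthfd1l, Nars, Wars, Iars and Lars did not pass the test.

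The factors rose by less than 2-fold. Atf4 stood at 5512 and 5429 in wild type and 7695 and 8456 in the KO (log2 difference 0.56, SE 0.061, adjusted p = 0.000266). Cebpb rose from 1244 and 1268 to 2337 and 2128 (0.83, SE 0.0672, adjusted p = 6.47e-05) and Atf5 from 913 and 766 to 1460 and 1458 (0.80, SE 0.0895, adjusted p = 0.000299). Ddit3 rose from 311 and 330 to 517 and 468 (0.62, SE 0.113, adjusted p = 0.00361). Cebpg (0.44) and Nupr1 (0.25) rose least, and Nupr1 lost its call with a replicate block (adjusted p = 0.0646).

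Among the effectors Vldlr rose from 228 and 237 to 1116 and 1035, 4.63-fold (log2 difference 2.20, SE 0.0882, adjusted p = 3.38e-06). Sesn2, which restrains mTORC1 when leucine is short, rose from 108 and 101 to 269 and 318 (1.48, SE 0.156, adjusted p = 0.000225), and Trib3 from 145 and 133 to 348 and 323 (1.27, SE 0.117, adjusted p = 0.000118). In these 3 the KO libraries lay well above both wild-type libraries. Fgf21 was at 0 and 1 in wild type and at 15 and 32 in the KO (adjusted p = 0.00142), and it is named by its levels because the control is near 0. It passed the filter on low values only through its KO libraries, so its call is no separate support. Ddit4 (0.79), Chac1 (0.48) and Ppp1r15a (0.34) rose less. Eif4ebp1 stood at 1397 and 1614 against 1774 and 1748 (adjusted p = 0.0504), and Stc2 at 518 and 504 against 534 and 581 (adjusted p = 0.29).

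All 5 enzymes of amino acid synthesis and turnover rose. Gpt2 rose from 444 and 442 to 1685 and 1739 (log2 difference 1.95, SE 0.0725, adjusted p = 2.5e-06), Cth from 149 and 198 to 643 and 663 (1.92, SE 0.133, adjusted p = 3.04e-05) and Pycr1 from 74 and 64 to 221 and 218 (1.66, SE 0.142, adjusted p = 8.39e-05). Asns rose from 3155 and 3243 to 4780 and 5231, 1.56-fold (0.64, SE 0.0641, adjusted p = 0.000169), and Aldh18a1 by 0.45. Of the serine and folate enzymes Aldh1l2 rose from 736 and 783 to 3392 and 3514, 4.55-fold (2.18, SE 0.0687, adjusted p = 1.2e-06). Its opposite-strand neighbour D10Wsu102e was at 3004 and 2938 in wild type and 4141 and 4002 in the KO, also higher. Mthfd2 rose from 2023 and 2143 to 3971 and 3980 (0.93, SE 0.0556, adjusted p = 1.6e-05), and Psph (0.64), Psat1 (0.45), Phgdh (0.37) and Shmt2 (0.28) rose less. Mthfd1l, which completes formate production in mitochondria, was at 2497 and 2395 against 2569 and 2490 (adjusted p = 0.549).

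Slc7a11 rose most of the transporters, from 123 and 125 to 1054 and 1022, 8.37-fold (log2 difference 3.06, SE 0.0873, adjusted p = 8.62e-07). Slc6a9 rose from 94 and 54 to 330 and 348 (2.23, SE 0.233, adjusted p = 0.000215), and its exons share 1429 bases with the opposite-strand gene Ccdc24, which was at 67 and 70 against 97 and 77. Slc7a3 rose from 10 and 6 to 34 and 35 (2.02, SE 0.404, adjusted p = 0.00552), a low level throughout. Slc7a5 rose from 1180 and 1022 to 3008 and 3343 (1.53, SE 0.0878, adjusted p = 1.36e-05). The remaining 3, Slc7a1 (1.05), Slc3a2 (0.60) and Slc38a2 (0.42), rose by about 2-fold or less.

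The synthetases split. Aars rose from 5899 and 5137 to 9322 and 9799 (log2 difference 0.80, SE 0.0744, adjusted p = 0.000125), Cars from 1672 and 1659 to 2704 and 2869 (0.74, SE 0.0648, adjusted p = 9.08e-05), Yars from 1468 and 1418 to 2367 and 2280 (0.69, SE 0.0652, adjusted p = 0.000133) and Gars from 6250 and 6235 to 9052 and 9460 (0.57, SE 0.056, adjusted p = 0.000162). Sars (0.46) and Eprs (0.37) rose less. Nars, Wars, Iars and Lars had overlapping libraries in the 2 groups, with differences between -0.04 and 0.08. With 1 library left out at a time all members called were higher, and 25 genes were called under every alternative that tested them. Fgf21 is among the 25, but the filter at a mean of at least 10 left it out.

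In the other pathway lists of the Actg1 KO both directions occurred, as among all genes (20.6% rose and 19.1% fell). Of 15 genes of eIF2, its exchange factor and kinases 5 rose and 4 fell: Eif2ak3, which encodes the kinase PERK, rose from 480 and 488 to 858 and 819 (0.79, adjusted p = 0.000102), Eif2ak4, which encodes the amino acid sensor GCN2, fell from 1813 and 1699 to 907 and 986 (-0.89, adjusted p = 0.000111), and Eif2b5 fell by 1.12 on the log2 scale. Tars rose (0.83) with 3 more of 10 other cytosolic synthetase genes, and Qars (-0.99), Vars (-0.74) and 1 more fell. Of 17 mitochondrial synthetase genes 2 rose and 6 fell, and of 14 other folate genes 4 rose and 3 fell. Of 13 other amino acid transporters 6 rose and 2 fell, and Slc38a1, a glutamine carrier, rose from 11 and 16 to 968 and 1108 (adjusted p = 1.95e-06). Of 16 endoplasmic reticulum stress genes 3 rose and 6 fell: Sdf2l1 went from 1445 and 1443 to 441 and 441, and Herpud1 from 420 and 370 to 1039 and 1087. Of 8 mitochondrial stress genes 6 fell, led by Dnaja3 (-1.12) and the protease gene Clpp (-0.95).

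In the Actg1 locus deletion 27 members rose and 4 fell, where 9.46% of all genes rose and 12.6% fell. The median log2 difference was 0.36 over the 44 genes and 0 over all. Atf4 stood at 8817 and 8842 against 5512 and 5429 in wild type (0.69, SE 0.061, adjusted p = 0.000285) and was the only factor called. Ddit3 was at 451 and 372 against 311 and 330 (0.35, SE 0.113, adjusted p = 0.0629), and Cebpb (1294 and 1247 against 1244 and 1268) and Cebpg overlapped wild type.

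Trib3 rose from 145 and 133 to 390 and 331 (log2 difference 1.37, SE 0.117, adjusted p = 0.000249) and Ppp1r15a from 607 and 585 to 1098 and 1223 (0.96, SE 0.0782, adjusted p = 0.000203). Ddit4 (0.90), Eif4ebp1 (0.62) and Chac1 (0.49) also rose, and Chac1 lost its call with a replicate block (adjusted p = 0.0597). Vldlr fell from 228 and 237 to 162 and 156 (-0.55, SE 0.0882, adjusted p = 0.00409). The 2 MEF mutants thus lay on opposite sides of wild type for Vldlr. Sesn2 and Stc2 did not pass the test, and Fgf21 was at 0 in both libraries.

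Cth rose from 149 and 198 to 519 and 490 (log2 difference 1.55, SE 0.133, adjusted p = 0.000249), Pycr1 from 74 and 64 to 141 and 163 (1.13, SE 0.142, adjusted p = 0.00137) and Gpt2 from 444 and 442 to 882 and 801 (0.92, SE 0.0725, adjusted p = 0.00017). Aldh18a1 rose by 0.73. Asns, by contrast, fell from 3155 and 3243 to 2621 and 2753 (-0.25, SE 0.0641, adjusted p = 0.0276), a difference that was not called without any 1 of the 4 libraries (adjusted p = 0.0705 to 0.162). Aldh1l2 rose from 736 and 783 to 1811 and 1977 (1.32, SE 0.0687, adjusted p = 2.91e-05), with D10Wsu102e at 3120 and 2704 against 3004 and 2938. Psph (1.00), Mthfd2 (0.56), Phgdh (0.35), Psat1 (0.25) and Mthfd1l (0.23) rose too, and Shmt2 did not pass (adjusted p = 0.147).

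Of the transporters only Slc7a11, Slc6a9 and Slc7a5 rose: Slc7a11 went from 123 and 125 to 368 and 337 (log2 difference 1.498, SE 0.0873, adjusted p = 4.53e-05), Slc6a9 from 94 and 54 to 140 and 139 (0.96, SE 0.233, adjusted p = 0.023) and Slc7a5 from 1180 and 1022 to 1745 and 1651 (0.63, SE 0.0878, adjusted p = 0.00212). Slc7a3 was at 10 and 6 in wild type and 3 and 4 in the deletion (adjusted p = 0.135). Every synthetase was called: Lars rose from 3584 and 3770 to 5931 and 6035 (0.70, SE 0.0539, adjusted p = 0.000155), Cars (0.50), Gars (0.45), Nars (0.43), Aars (0.38), Eprs (0.36), Sars (0.35) and Iars (0.23) rose, and Wars (-0.26) and Yars (-0.22) fell. With a replicate block Iars, Wars and Yars lost their calls (adjusted p = 0.0589, 0.0727 and 0.0767). Without wild-type library 2 the count of members called went from 31 to 20.

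**Figure D3:**
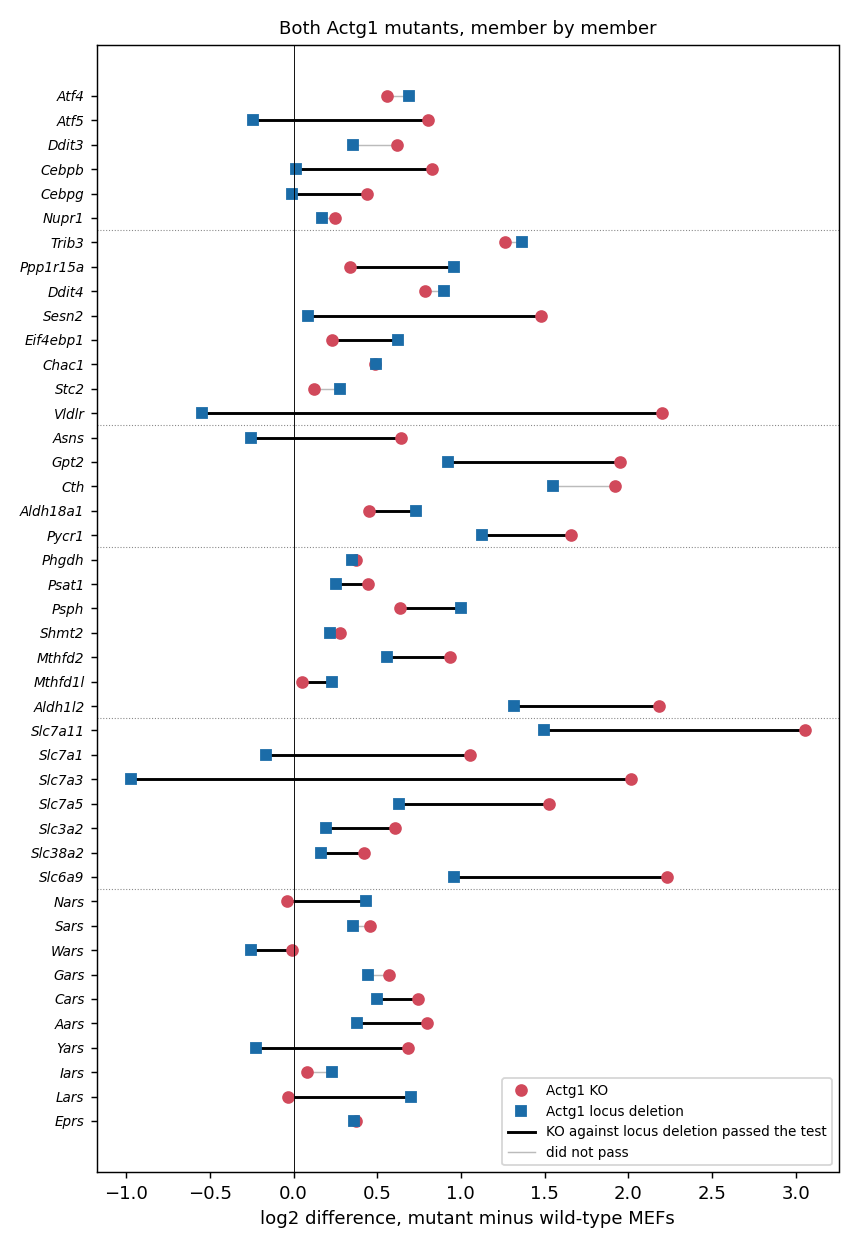
For 43 genes (without Fgf21) the log2 difference from wild-type MEFs is shown for the Actg1 KO (red circle) and the locus deletion (blue square), with a black line where the direct test between the 2 mutants passed and a grey line where it did not. Both mutants use the same 2 wild-type libraries. Vldlr, Slc7a3, Slc7a11, Sesn2 and Slc6a9 have the longest lines to the KO side, and Lars and Ppp1r15a lie on the locus deletion side.

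The direct comparison of the 2 MEF mutants showed where they differed. The KO was higher for 23 members and lower for 7, where 24.5% and 20.7% of all genes were. The 23 count Fgf21, at 15 and 32 in the KO and 0 in both locus deletion libraries. All 7 transporters were higher in the KO, among them Slc7a3 (34 and 35 against 3 and 4, log2 difference 2.99, SE 0.404, adjusted p = 0.000631), Slc7a11 (1.56, SE 0.0873, adjusted p = 8.15e-06) and Slc7a1 (1.22). Vldlr was at 1116 and 1035 against 162 and 156 (2.75, SE 0.0882, adjusted p = 8.2e-07). Sesn2 (1.39), Atf5 (1.05), Gpt2 (1.03), Yars (0.91), Asns (0.90, SE 0.0641, adjusted p = 2.54e-05) and Aldh1l2 (0.87) were also higher in the KO. Lower in the KO were Lars (-0.73, adjusted p = 2.85e-05), Ppp1r15a (-0.62), Nars (-0.47), Eif4ebp1 (-0.40), Psph (-0.37), Aldh18a1 (-0.28) and Mthfd1l (-0.18).

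Atf4 (log2 difference -0.13, 95% interval -0.27 to 0.01, adjusted p = 0.121) and Ddit3 (0.26, adjusted p = 0.0955) did not pass in that direct test, nor did Trib3, Ddit4, Chac1 or Cth. The split between higher and lower members moved with the scaling: with libraries scaled without genes over 1% of a library it was 27 to 4, and with a common upper quartile 31 to 4, as the median of all genes went from 0.07 to 0.16 and 0.24. Under both of these scalings Aldh18a1, Psph and Mthfd1l lost their calls. Without KO library 1 or KO library 2 the count called went from 30 to 17.

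The other pathway lists in the locus deletion are read against the 9.46% of all genes that rose and 12.6% that fell. Of 16 endoplasmic reticulum stress genes 9 rose and 1 fell, with Sdf2l1 at 2551 and 2442 against 1445 and 1443 in wild type (log2 difference 0.79, adjusted p = 0.000153), Manf at 0.69 and Pdia6 at 0.57. In the direct test of the 2 mutants 20.7% of all genes were lower and 24.5% higher in the KO. Of these 16 genes 9 were lower and 2 higher there. Of 8 mitochondrial stress genes 4 rose against wild type, and in the direct test 7 were lower in the KO. Of 13 other amino acid transporters 4 rose and 2 fell, of 10 other cytosolic synthetase genes 2 rose (Tars at 0.44 and Mars at 0.39), of 17 mitochondrial ones 4 rose and 1 fell, of 14 folate genes 4 rose and 2 fell, and of 15 eIF2 genes 3 rose and 2 fell.

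**Figure D4:**
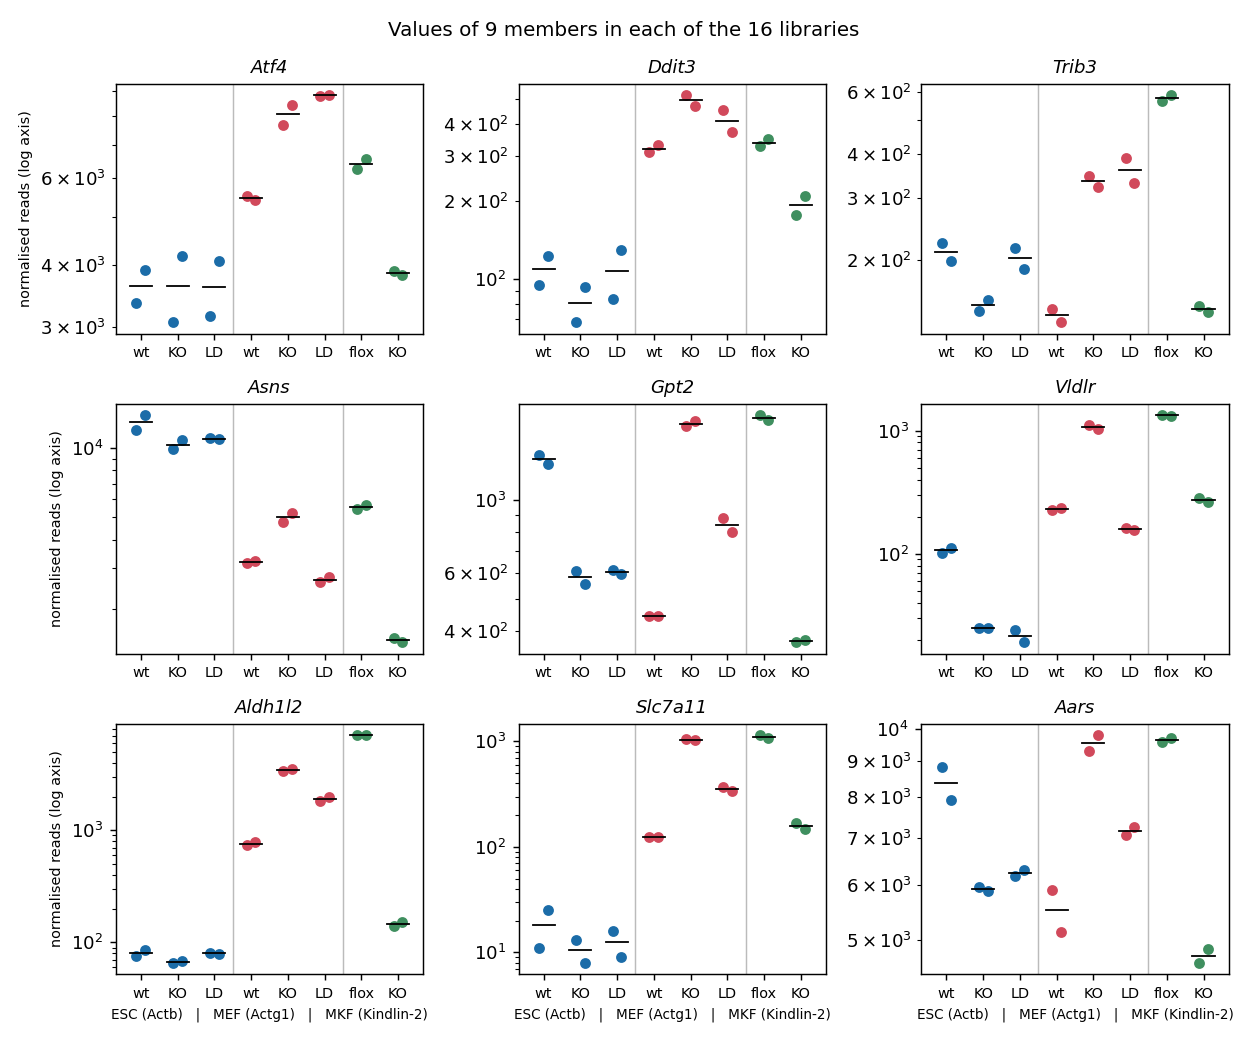
Each panel shows 1 gene, each point 1 of the 16 libraries as normalised reads on a log axis, and each line the mean of a group of 2 (wt, wild type; LD, locus deletion; flox, floxed). Vertical lines part the 3 tables, which were scaled apart, and the axis differs between panels. Aldh1l2 goes from 7014 and 7008 to 140 and 153 in the MKF KO, and Atf4 in ESCs lies between 3065 and 4179 in all 3 groups.

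In the Actb KO ESCs 11 members fell and none rose, where 2.44% of all 23054 genes fell and 2.44% rose. The median log2 difference was -0.32 over the 43 genes and 0 over all. In the locus deletion 13 fell and 1 rose, against 6% and 5.19% of all genes, with a median of -0.24. The 2 mutants share their wild-type libraries. Nupr1, Ddit4, Stc2, Vldlr, Gpt2, Aldh18a1, Mthfd2, Slc7a5 and Aars fell in both.

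Atf4 did not pass the test in either: it was at 3348 and 3911 in wild type, 3065 and 4179 in the KO (log2 difference -0.02, 95% interval -0.42 to 0.39, adjusted p = 0.975) and 3162 and 4077 in the locus deletion (-0.01, adjusted p = 0.98). Library 2 was the higher one in each of the 3 groups. Ddit3 was at 95 and 123, 68 and 93, and 84 and 130 in the same order (log2 differences -0.44 and -0.05, SE 0.266, adjusted p = 0.41 and 0.938). Asns was at 11976 and 13881 in wild type, 9877 and 10831 in the KO (-0.32, adjusted p = 0.145) and 11062 and 10933 in the locus deletion (-0.23, adjusted p = 0.222), lower in all 4 mutant libraries by an amount that did not pass. Between the KO and the locus deletion the log2 differences were -0.39 for Ddit3 (SE 0.266, adjusted p = 0.506) and -0.09 for Asns (SE 0.108, adjusted p = 0.744), and for Atf4 the libraries overlapped (SE 0.175, adjusted p = 1).

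Nupr1 was the factor that fell in both, from 421 and 337 to 179 and 165 in the KO (log2 difference -1.13, SE 0.167, adjusted p = 0.00964) and to 124 and 147 in the locus deletion (-1.47, adjusted p = 0.00166). Cebpb was at 64 and 63 in wild type, 35 in both KO libraries (adjusted p = 0.0791) and 31 and 37 in the locus deletion, where it fell (-0.89, adjusted p = 0.0431). Stc2 fell from 202 and 177 to 34 and 35 in the KO, 5.49-fold (-2.42, SE 0.189, adjusted p = 0.000565), and to 59 and 63 in the locus deletion (-1.62, adjusted p = 0.00185). Vldlr fell from 102 and 112 to 25 in both KO libraries (-2.05, SE 0.244, adjusted p = 0.00428) and to 24 and 19 in the locus deletion (-2.27, adjusted p = 0.0013). For these 2 genes every mutant library was below every wild-type library by a wide margin. Ddit4 was more spread, at 395 and 221 in wild type, 112 and 64 in the KO (-1.79, SE 0.348, adjusted p = 0.0276) and 127 and 85 in the locus deletion (-1.499, adjusted p = 0.029). Chac1 was at 97 and 74, 43 and 49 (adjusted p = 0.0714), and 45 and 42, the last a fall (-0.95, adjusted p = 0.0328).

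Gpt2 fell from 1371 and 1293 to 606 and 556 in the KO (log2 difference -1.20, SE 0.108, adjusted p = 0.00114) and to 614 and 594 in the locus deletion (-1.14, adjusted p = 0.000816). Aldh18a1 fell by 0.71 and 0.59. Pycr1 was at 285 and 255 in wild type, 159 and 165 in the KO (-0.73, SE 0.137, adjusted p = 0.024) and 275 and 260 in the locus deletion, and it was the 1 member called between the 2 mutants (-0.72, adjusted p = 0.0235), where 2.32% of all genes were lower in the KO and 2.56% higher. Mthfd2 fell by 0.51 and 0.74, from 1873 and 1760 to 1269 and 1271 and to 1012 and 1168. Phgdh was at 673 and 423 in wild type, 312 and 231 in the KO (-0.99, adjusted p = 0.0714) and 261 and 185 in the locus deletion, where it fell (-1.28, SE 0.258, adjusted p = 0.0171). Psat1, which follows Phgdh in serine synthesis, was at 4165 and 3034, 2316 and 1863 (adjusted p = 0.074), and 2847 and 1994 (adjusted p = 0.114). Libraries 1 were higher than libraries 2 in all 3 groups for Phgdh and Psat1.

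Slc6a9 fell from 35 and 44 to 5 and 11 in the KO (log2 difference -2.25, SE 0.404, adjusted p = 0.0205) and was at 17 and 18 in the locus deletion (adjusted p = 0.118), at levels where few reads stand behind each value. Slc7a5 fell by 0.55 and 0.67 and Slc38a2 in the locus deletion by 0.61. Slc7a3, which encodes a transporter of arginine and lysine, rose in the locus deletion from 515 and 532 to 1108 and 827 (0.87, SE 0.152, adjusted p = 0.00951). Of the 10 synthetases only Aars was called, from 8841 and 7921 to 5958 and 5866 (-0.50, SE 0.0966, adjusted p = 0.0269) and to 6167 and 6297 (-0.43, adjusted p = 0.0266). The exons of Aars overlap those of Exosc6 on the same strand. The other 9 had differences from -0.25 to 0.38.

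These ESC calls rest on few libraries, and leaving out a library also cut the calls over all genes. Without any 1 of the 4 libraries of the KO comparison 0 members were called by limma, while 17 to 25 had an unadjusted p below the threshold, and in the locus deletion comparison 0 were called without either wild-type library, 4 without locus deletion library 1 and 6 without library 2. With no variance trend 2 and 4 were called in the 2 comparisons, and with only the 2 groups compared in the fit 3 and 5. The counts over all genes moved likewise. They were 1126 and 2580 in the main fit, 152 and 567 with no variance trend and 272 and 876 with only the 2 groups. With the replicate block they were 1850 and 3727. With a replicate block, used because same-numbered ESC libraries deviated together, 16 members were called in the KO and 18 in the locus deletion, adding Eif4ebp1 and Psat1 as falls in both (for Psat1 adjusted p = 0.00214 and 0.0041), Phgdh (adjusted p = 0.00243) and Mthfd1l in the KO and Slc7a1 in the locus deletion, and Wars in the KO and Sesn2 in the locus deletion as rises. Between the 2 mutants the block called 3: Pycr1 and Stc2 lower and Slc7a1 higher in the KO.

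Few genes of the other pathway lists were called in ESCs, apart from amino acid transporters in the locus deletion. In the KO 2.44% of all genes rose and 2.44% fell. In the KO none of 15 eIF2 genes, 10 other cytosolic and 17 mitochondrial synthetase genes, 14 folate genes, 16 endoplasmic reticulum stress genes and 8 mitochondrial stress genes passed in limma. In that order, 4, 1, 3, 6, 2 and 0 of them had an unadjusted p below the threshold. Of 15 other amino acid transporters Slc7a8 rose from 33 in both wild-type libraries to 162 and 157 (log2 difference 2.24, adjusted p = 0.000565) and Slc7a6 fell (-0.84). In the locus deletion 5.19% of all genes rose and 6% fell. Of the 15 transporters 1 rose and 5 fell (33.3%) there, with Slc7a8 at 1.84 and Slc1a3, a glutamate carrier, at -1.77. In the other lists Impact, Qars, Mtr and Amt rose in the locus deletion, and Kars and Hsp90b1 fell. Eif2ak2, which encodes the double-stranded RNA kinase PKR, fell there from 1276 and 1328 to 568 and 592 (-1.17, adjusted p = 0.000596), and Herpud1 fell from 173 and 175 to 76 and 90 (-1.06, adjusted p = 0.00703).

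Set side by side, 33 of the 37 members that rose in the Actg1 KO fell in the Kindlin-2 KO (89.2% of the former and 86.8% of the 38 that fell). Over all 17009 genes tested in both cell types, 1347 did so (37.8% and 31.1%). Only Cebpb rose in both. Of the 27 that rose in the Actg1 locus deletion, 25 fell in the Kindlin-2 KO (92.6% and 65.8%), against 36% and 15.8% over all genes. Among the 44 members themselves 84.1% rose in the Actg1 KO, 61.4% rose in the Actg1 locus deletion and 86.4% fell in the Kindlin-2 KO. Overlaps near these sizes follow from those rates alone, so they do not show a gene-by-gene relation. The MEF and MKF comparisons share no libraries, and both MEF mutants were measured against the same wild-type pair.

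The 12 members whose promoter window holds the motif all fell in the Kindlin-2 KO, with a median log2 difference of -1.79, and 11 of them rose in the Actg1 KO (median 0.74). Of the 23 matched members without it 19 fell in the Kindlin-2 KO (median -0.78) and 21 rose in the Actg1 KO (median 0.56). In the Actg1 locus deletion 7 of the 12 rose and 3, Asns, Vldlr and Yars, fell, while 13 of the 23 rose and none fell, with medians of 0.3 and 0.35. In ESCs the medians with and without the motif were -0.5 and -0.41 in the KO and -0.24 and -0.37 in the locus deletion. Which side had the larger median thus differed between mutants, and the difference between the sides was not tested.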

How the data were processed

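Values came from 3 deposited gene tables, 1 per cell type, each with 2 libraries per group, 16 in all. The deposited values are whole numbers but not raw counts: each library reads as counts scaled by its own factor, then rounded, so their unit was treated as a score (normalised read counts), scaled by the authors within each table. Per the submitters' processing notes, the tools included STAR 2.5.3a, featureCounts 1.6.0 and DESeq2 1.14.1 with the mouse builds mm10 and GRCm38. The notes as used here give no role or order, and strand use in counting is not given in the sources used here.

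Genes with a mean of at least 1 were tested on log2(value + 1) with limma 3.58.1 (R 4.3.3), with a variance trend, all groups of a table in 1 fit and Benjamini-Hochberg adjustment over all genes tested. The threshold was an adjusted p of 0.05. With 2 libraries a group, residual degrees of freedom were 3, 3 and 2 for ESCs, MEFs and MKFs. The script was tested on simulated data. Summed values per library were 15565648 to 22094490, and the steps of low values gave an estimated 12700000 to 24500000 reads, a measure of depth only. Replicate libraries correlated at 0.981 to 0.996 (log2, across genes).

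Samples were grouped by the labels. Deviations from the group means, correlated across genes between libraries of the same number, were 0.349 to 0.678 in ESCs, which pairs them from the values. They were -0.302 to 0.214 in MEFs and -0.0952 in MKFs, where the libraries share only a number. Alternatives varied the pseudocount, filter, scaling, replicate block, variance trend, groups in the fit and each library. The members and gene lists were chosen with earlier results of these data known. Named were Atf4, Ddit3 and Asns in every comparison and, per role, the members that changed most; of other pathway lists, the called genes with the smallest p.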

Additional observations from a re-analysis of the deposited data

How the results depend on the processing

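No member called in a comparison reversed its direction there under any alternative run; members not called were not followed. Calls held under every alternative that tested the gene for 25 members in the Actg1 KO and 13 in the Actg1 locus deletion. They held for 16 between the 2 MEF mutants, 22 in the Kindlin-2 KO and 0 in the ESC comparisons. Fgf21 is counted in the 25 and the 16, but the filter at a mean of at least 10 left it out of the MEF tests. With no variance trend 2 members were called in the Actb KO, 4 in the Actb locus deletion, 0 between the 2 (5 at an unadjusted p below the threshold in limma) and 15 in the Actg1 locus deletion. With only the 2 groups compared in the fit, the 3 ESC counts were 3, 5 and 0 (the last again with 5 unadjusted). Between the Actb mutants a pseudocount of 5 gave 2, a mean of at least 10 gave 3, scaling without genes over 1% of a library gave 2 and the replicate block gave 3. Leaving out 1 library at a time gave 0 to 0 in the Actb KO, 0 to 6 in the Actb locus deletion, 0 to 0 between the 2 (4 to 7 unadjusted), 26 to 33 in the Actg1 KO, 20 to 23 in the Actg1 locus deletion, 17 to 24 between the 2 and 23 to 38 in the Kindlin-2 KO. Over all genes too, fewer were called with any 1 library left out. The lone library left is then assumed to vary like the others. The cause of these shifts was not tested beyond the fewer samples. With the replicate block the counts were 16, 18, 36, 27, 29 and 40 in the Actb KO, Actb locus deletion, Actg1 KO, Actg1 locus deletion, between the MEF mutants and in the Kindlin-2 KO. Between the MEF mutants the block ended the call of Mthfd1l (adjusted p = 0.0604), and calls it changed elsewhere stand beside the results. In MEFs and MKFs the same number does not pair libraries. Few reads stand behind Fgf21, Slc7a3 in MEFs and MKFs, and Slc6a9 and Slc7a11 in ESCs.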
